A study of Mus musculus with 12 samples.

Results

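The joint change brought by 2 leukemia-associated mutations was read by setting 3 libraries that carried both mutants against 3 libraries that carried empty vector. The 6 libraries were taken by their labels from the 12 of the series. Every group started from bone marrow cells of young C57BL/6 mice (donors aged 6 to 12 weeks in the study's methods), transduced with retrovirus. During transduction all groups were grown with WEHI conditioned medium, IL-3, IL-6 and stem cell factor (SCF), so the control cells were also cytokine-stimulated. The both-mutant cells received CSF3R T618I, a receptor for granulocyte colony-stimulating factor with a membrane-proximal point mutation, together with CEBPA V314VW, a C-terminal insertion mutant of the transcription factor C/EBPα. The control cells received the vectors without an insert. The remaining 6 libraries, 3 with CSF3R T618I alone and 3 with CEBPA V314VW alone, are given only where they set the joint state beside a single mutant. After culture, lineage-negative cells positive for the vectors' GFP and RFP reporters were sorted and frozen before RNA was prepared. The vectors carried their own promoter, and the normal mouse copies of Csf3r and Cebpa remained in every cell. The labels do not say whether libraries A, B and C came from separate mice or cultures. The p-values therefore measure only the spread between libraries within groups, pooled over all 12, which may be technical.

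CSF3R is the cytokine receptor that drives neutrophil production. Ligand binding activates JAK kinases, which phosphorylate STAT3 and STAT5, and these factors then switch on targets such as the SOCS feedback inhibitors. C/EBPα directs the step from multipotent progenitor to granulocyte-monocyte progenitor and opens the genes of the primary granules. Its C-terminal mutations fall in the part of the protein that dimerizes and binds DNA, and in acute myeloid leukemia they recur together with mutations of CSF3R.

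The 6 libraries held between 44210071 and 52426593 counts and 22021 to 22824 detected genes. The 100 most abundant genes took 14.1% to 15.3% of the counts. A principal component analysis of the 500 most variable genes over all 12 libraries placed 56.5% of the variance on the first component and 33.3% on the second, where the empty vector libraries scored 39.7 to 43.0 and the both-mutant libraries −37.6 to −35.6. The libraries with both mutants resembled each other more closely than the controls did. The coefficient of variation beyond counting noise was 0.0462 for both mutants and 0.146 for empty vector. It was 0.267 for CSF3R T618I alone and 0.138 for CEBPA V314VW alone, and all 4 groups enter the pooled spread. Deviations of control libraries A, B and C from their group mean correlated with log2 exon length at 0.573, −0.165 and −0.528. For both-mutant libraries A, B and C the values were 0.330, −0.177 and −0.208. Of the controls, library B stood high in genes of late neutrophils, and the values without it are given where it decides a result. Markers removed by the lineage gate were close to zero. Cd3e had no count in any of the 6 libraries, and Ly6g stayed between 0.0776 and 0.612 CPM, the counts scaled to effective library size by trimmed mean of M values. The progenitor marker Kit ranged from 148 to 278 CPM with empty vector and from 50.4 to 59.0 CPM with both mutants.

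Both mutants together changed the expression of 1897 of 16360 genes. Of these 1006 rose, or 6.15% of the genes tested, and 891 fell, or 5.45%. A gene was called when its adjusted p in edgeR's quasi-likelihood test was under 0.05 and its fitted log2 fold change was beyond 1 in either direction. By adjusted p alone 1754 genes were higher (10.7%) and 1755 were lower (10.7%), and these are the shares against which each gene list is read. The lowest library of the higher group lay above the highest of the other in 1890 of the 1897 called genes, where 45.2% of all tested genes had groups that did not overlap. The median log2 fold change was 2.21 among the genes that rose and −1.70 among those that fell. Changes of more than 16-fold were uneven, with 203 genes higher and 51 lower by the fitted values. The counts were 177 and 48 when genes without a count in one group were placed at the bound that 3 counts allow. Such genes numbered 54 among the higher calls and 8 among the lower calls. Among the called genes 1637 were protein coding (849 higher, 788 lower) and 72 were long intergenic noncoding RNAs (43 higher, 29 lower). In bulk RNA, fewer cells of a type and less RNA per cell cannot be told apart, and this holds for every result below.

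**Figure D1:**
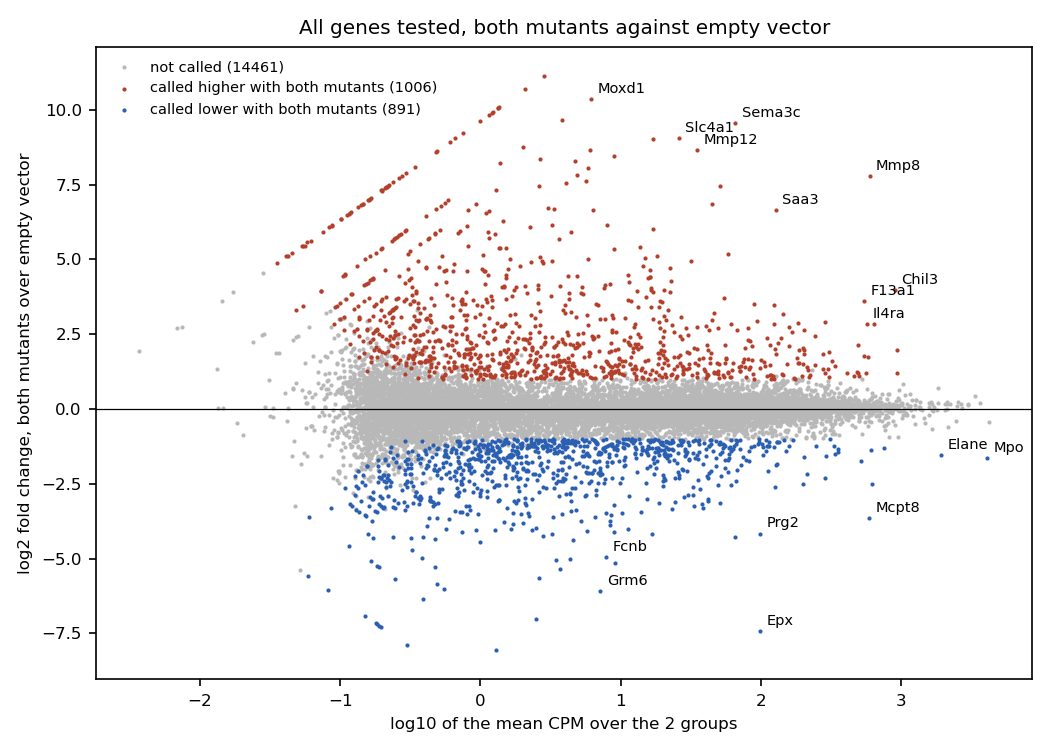
Log2 fold change of both mutants over empty vector (vertical axis) against the mean CPM of the 6 libraries (horizontal axis, log scale), with 1 point for each tested gene and the 1006 higher and 891 lower calls in colour (2 genes without a count in the 6 libraries are not drawn). The upper side holds more genes beyond 4 log2 units than the lower side.

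The largest rises among genes of at least 10 CPM in the higher group were in genes that the control cells barely expressed. Several of them encode secreted or cell-surface proteins. Sema3c, a secreted semaphorin that signals through neuropilins and plexins, read 0.174, 0.153 and 0.184 CPM with empty vector and 130.2, 130.7 and 131.5 CPM with both mutants (log2 fold change 9.56, SE 0.25, adjusted p = 3.9e-10; chr5:17574281-17730268, mm10). The 3 libraries with both mutants were almost equal, far above the controls. The mean of Sema3c was 140.5 CPM with CEBPA V314VW alone and 0.181 CPM with CSF3R T618I alone. With both mutants it did not differ from CEBPA V314VW alone (−0.1, adjusted p = 0.729 in edgeR). Slc4a1, which encodes band 3, the chloride-bicarbonate exchanger of erythrocytes, rose from 0.0966, 0.131 and 0.0612 CPM to 55.7, 49.3 and 50.9 CPM (9.05, SE 0.34, adjusted p = 4.0e-09; chr11:102348824-102366203). Its mean with CSF3R T618I alone was higher still, at 149 CPM, and with CEBPA V314VW alone it was 0.114 CPM.

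Among called genes of at least 10 CPM in the higher group, the largest fitted change was that of Moxd1, which encodes a copper monooxygenase related to dopamine beta-hydroxylase (chr10:24223517-24302790). A single read count was found over the 3 empty vector libraries, and the both-mutant libraries held 11.7, 14.3 and 10.9 CPM. The ratio was 1790 with a 95% counting interval of 321 to 70800, and the adjusted p was 2.1e-08. The single mutants lay between, at a mean of 1.43 CPM with CSF3R T618I and 0.709 CPM with CEBPA V314VW.

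Enzymes that cut or cross-link extracellular matrix formed part of the same leading group. Mmp8, the collagenase stored in neutrophil granules, read 4.81, 7.54 and 3.84 CPM in the controls and 1084, 1277 and 1181 CPM with both mutants (7.78, SE 0.53, adjusted p = 3.3e-07; chr9:7558456-7568485). Mmp12, the macrophage elastase of the same gene cluster, rose from 0.0386, 0.394 and 0.102 CPM to 63.6, 74.7 and 71.5 CPM (8.65, SE 0.50, adjusted p = 9.9e-08; chr9:7344381-7369499). For each gene the groups were wide apart although library B was the highest of the controls. With CEBPA V314VW alone the means of Mmp8 and Mmp12 were 841 and 12.5 CPM, and with CSF3R T618I alone 85.9 and 0.163 CPM. Mmp8 did not pass against CEBPA V314VW alone (0.49, adjusted p = 0.473 in edgeR). Lox, the lysyl oxidase that cross-links collagen, reached 10.5 to 13.7 CPM (8.67), and Smoc2, a secreted calcium-binding matrix protein, reached 16.6 to 19.0 CPM (8.47). Esm1, a secreted proteoglycan, went from 0.560 to 0.918 CPM up to 85.5 to 94.5 CPM (6.84).

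The rest of the 15 largest rises covered membrane proteins, an acute-phase protein and an imprinted RNA. Rtn4rl2, a receptor of the Nogo receptor family, stood at 31.5 to 37.5 CPM (9.04), and Steap4, a metalloreductase of endosomes and the plasma membrane, stood at 9.95 to 12.6 CPM (7.61). Sema4f, a membrane-bound semaphorin, moved from 0.510 to 0.618 CPM up to 89.2 to 111.8 CPM (7.46). Saa3, an acute-phase serum amyloid, rose from 2.65, 3.04 and 1.84 CPM to 256, 235 and 262 CPM (6.65, SE 0.32, adjusted p = 2.1e-08). Meg3, an imprinted long noncoding RNA transcribed from the maternal chromosome, stood at 11.2 to 12.2 CPM with both mutants (8.07, SE 0.54, adjusted p = 2.9e-07). Sidt1 stood at 11.5 to 13.9 CPM (6.65). Ifi206, of the interferon-inducible PYHIN family, stood at 15.3 to 16.8 CPM (6.16), and its reads may be shared with neighbouring family members. Some of these genes had a higher mean in a single mutant. With CSF3R T618I alone Rtn4rl2, Steap4 and Saa3 stood at 62.4, 16.1 and 416 CPM, and with CEBPA V314VW alone Ifi206 stood at 37.2 CPM. Sema4f, Meg3 and Sidt1 had a lower mean in each single mutant than with both.

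**Figure D2:**
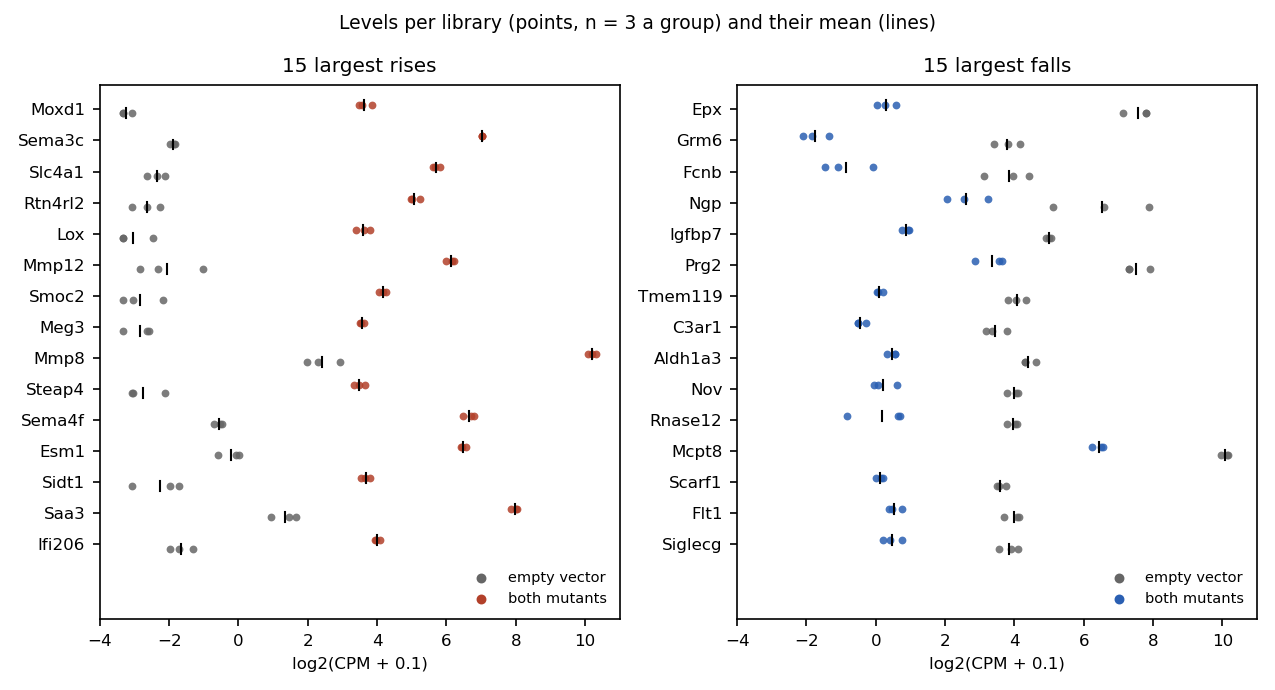
Level of the 15 genes with the largest rises (left) and the 15 with the largest falls (right) on a log2 scale of CPM plus 0.1 (horizontal axis), with 1 point for each of the 3 libraries of a group and a line at their mean. The 3 both-mutant libraries of Sema3c lie between 130.2 and 131.5 CPM, and those of Epx between 0.927 and 1.41 CPM.

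Promoter sequence of some named genes that rose and some that fell is shown because STAT proteins act downstream of CSF3R and C/EBP proteins bind their own motif. RefSeq promoters (GRCm38.p6, 250 bases before to 50 after a transcription start) were searched on both strands for TTCNNNGAA and for TTGCNNAA, which are short forms of the STAT and C/EBP motifs, and for a short form of the interferon-stimulated response element. Each motif was counted by itself, also where it overlapped another. The stretches below run 5′ to 3′ along the gene's strand with the matched bases in capitals, first for the STAT motif and then for the C/EBP motif.
Moxd1, chr10:24223355-24223387, plus strand: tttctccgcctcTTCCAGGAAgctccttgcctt
Steap4, chr5:7960344-7960376, plus strand: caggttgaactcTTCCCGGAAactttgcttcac
Chil3, chr3:106167716-106167748, minus strand: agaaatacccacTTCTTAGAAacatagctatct
Bcl6, chr16:23981351-23981463, minus strand: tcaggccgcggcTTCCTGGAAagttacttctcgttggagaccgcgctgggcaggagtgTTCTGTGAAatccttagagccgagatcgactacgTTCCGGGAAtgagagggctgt
Nkg7, chr7:43436906-43436938, plus strand: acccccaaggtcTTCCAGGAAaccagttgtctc
Gp5, chr16:30310987-30311019, minus strand: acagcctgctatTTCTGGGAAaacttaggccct
Mmp12, chr9:7344346-7344377, plus strand: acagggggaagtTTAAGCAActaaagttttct
Mmp8, chr9:7558398-7558428, plus strand: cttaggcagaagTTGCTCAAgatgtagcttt
Steap4, chr5:7960373-7960404, plus strand: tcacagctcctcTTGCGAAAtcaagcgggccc
Saa3, chr7:46715756-46715787, minus strand: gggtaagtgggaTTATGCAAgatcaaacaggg
Fcnb, chr2:28084982-28085125, minus strand: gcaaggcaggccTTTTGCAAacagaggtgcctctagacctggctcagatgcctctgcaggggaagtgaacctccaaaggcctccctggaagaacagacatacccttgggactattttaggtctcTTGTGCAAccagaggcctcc
Ngp, chr9:110419658-110419807, plus strand: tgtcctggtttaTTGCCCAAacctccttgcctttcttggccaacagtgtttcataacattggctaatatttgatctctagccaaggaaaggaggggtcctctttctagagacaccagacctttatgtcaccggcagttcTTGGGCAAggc

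Of the genes shown, Nkg7, Gp5, Fcnb and Ngp fell and the others rose, and Bcl6 carried 3 STAT matches next to a RefSeq start inside the gene. The STAT motif lay in 8.93% of 896 promoters of genes called higher, in 6.14% of 814 promoters of genes called lower and in 6.97% of all 13992 promoters of tested genes. The C/EBP motif lay in 11.9%, 10.8% and 8.78% of the same promoters, and the interferon-response motif in 5.13%, 4.79% and 3.19%. In the 250 bases before the start alone, the STAT shares were 8.26%, 5.16% and 5.97%. The C/EBP shares there were 9.49%, 10.2% and 7.8%, so the order of the higher and lower calls was reversed. The interferon-response shares there were 4.91%, 4.3% and 2.74%. A match is a description of the letters in the window, and binding was not measured.

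The most abundant genes that rose, by CPM and thus without a correction for transcript length, included further myeloid products. Chil3, a chitinase-like protein of neutrophils and macrophages, read 82.2, 209 and 30.2 CPM in the controls and 1369, 2083 and 1618 CPM with both mutants (3.98, SE 0.64, adjusted p = 5.4e-04). Control library B was again the highest of its group and still lay far below the lowest both-mutant library. F13a1, the A chain of coagulation factor XIII, went from 98.9, 90.3 and 57.9 CPM to 1007, 987 and 1024 CPM (3.61, SE 0.29, adjusted p = 1.6e-06). Il4ra, the shared receptor chain for IL-4 and IL-13, went from 167, 130.0 and 119 CPM to 963, 999 and 1020.0 CPM (2.84, SE 0.25, adjusted p = 3.5e-06). Lipg, the endothelial lipase, reached 1057 to 1162 CPM (2.85), and Hif1a, the oxygen-regulated transcription factor, reached 872 to 906 CPM (1.75). Emb, a membrane glycoprotein of the immunoglobulin superfamily, rose by 1.19 and the kinase gene Stk26 by 1.77 log2 units. The interferon-induced transmembrane genes Ifitm1 (1.97) and Ifitm3 (2.14) also rose, but near-identical copies leave their counts uncertain.

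The deepest falls included genes of eosinophils, basophils and granulocytes. Epx, eosinophil peroxidase, dropped from 222, 224 and 141 CPM to 0.927, 1.41 and 1.11 CPM (−7.41, SE 0.67, adjusted p = 4.0e-06; chr11:87864000-87875536). Prg2, which encodes the eosinophil major basic protein, dropped from 158, 243 and 158 CPM to 7.16, 11.6 and 12.4 CPM (−4.16). Mcpt8, a basophil granule protease, dropped from 1126, 1137 and 999 CPM to 75.9, 90.1 and 93.3 CPM (−3.65, SE 0.19, adjusted p = 4.1e-08). No library of one group reached the range of the other for these 3 genes. Rnase12, a ribonuclease gene, fell by 3.74.

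Other genes among the 15 largest falls encode surface and secreted proteins. Grm6, a glutamate receptor, went from between 10.6 and 17.7 CPM to between 0.133 and 0.291 CPM (−6.10). Fcnb, ficolin B of myeloid granules, went from 15.6, 21.4 and 8.69 CPM to 0.265, 0.851 and 0.369 CPM (−4.95). Ngp, the neutrophilic granule protein, went from 96.3, 238 and 34.6 CPM to 5.74, 9.29 and 4.04 CPM (−4.28, SE 0.75, adjusted p = 1.1e-03). The complement receptor gene C3ar1 fell by 4.09, the scavenger receptor gene Scarf1 by 3.60, the VEGF receptor gene Flt1 by 3.53 and the sialic acid lectin gene Siglecg by 3.49 log2 units. Igfbp7 (−4.18) and Nov (−3.87) encode secreted growth-factor-binding and matricellular proteins, Tmem119 (−4.10) a membrane protein and Aldh1a3 (−4.02) an enzyme that makes retinoic acid.

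Basophil and mast cell genes fell together. Of 24 tested, 17 fell and 2 rose at adjusted p under 0.05, with a median log2 fold change of −1.37 against 0.01 over all tested genes. The number that rose was 1 when control library B or C, or both-mutant library A or C, was left out. Prss34, a basophil protease, read 1223, 1074 and 858 CPM with empty vector and 167, 188 and 195 CPM with both mutants (−2.52). Cd200r3, an activating receptor of basophils and mast cells, went from 84.5, 66.1 and 54.8 CPM to 6.93, 8.04 and 7.57 CPM (−3.19, SE 0.17, adjusted p = 4.5e-08). Tpsb2, a mast cell tryptase, went from between 27.5 and 44.9 CPM to between 6.33 and 7.13 CPM (−2.37). The summed level of the list ranged from 6245 to 7707 CPM with empty vector and from 2714 to 3048 CPM with both mutants.

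The eosinophil list was smaller and moved further. Of 9 genes 6 fell and 2 rose, with a median of −2.77. Prg3, a homolog of the major basic protein, went from between 16.4 and 24.96 CPM to between 2.25 and 3.38 CPM (−2.89), and Siglecf, a surface lectin of eosinophils, from between 24.9 and 32.3 CPM to between 5.57 and 6.89 CPM (−2.18). Ear6, an eosinophil-associated ribonuclease, had 86 counts over the controls and 0 over the both-mutant libraries, so its level was at least 27.7-fold lower, taking 3 counts over the group as the floor. The 2 rises were Alox15, a lipoxygenase (1.47), and Cd24a, a surface glycoprotein found on many immature blood cells (1.43; 163 to 197 CPM against 472 to 522 CPM).

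Megakaryocyte genes went the same way. Of 18 tested, 14 fell and 1 rose, and the median was −1.83. Gp5, a subunit of the platelet receptor for von Willebrand factor, read 12.96, 13.4 and 12.2 CPM with empty vector and 2.47, 2.69 and 2.39 CPM with both mutants (−2.35, SE 0.13, adjusted p = 6.3e-08). Pf4, a platelet chemokine, fell by 1.92, Rab27b, a granule-trafficking GTPase, by 1.73 and the tetraspanin gene Cd9 by 1.33 log2 units. Selp, the platelet and endothelial adhesion receptor, was the single gene that rose (1.49).

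Erythroid genes rose instead. Of 30 tested, 24 rose and none fell at adjusted p under 0.05 in edgeR, and the median log2 fold change was 1.57. At an unadjusted p under 0.05, and at adjusted p in DESeq2 and limma voom, the number that fell was also 0. Hbb-bs, an adult beta globin, went from 1.35, 1.53 and 2.12 CPM to 41.5, 42.7 and 45.7 CPM (4.70, SE 0.27, adjusted p = 1.0e-07), and Hba-a1, an alpha globin, from between 1.31 and 1.67 CPM to between 28.3 and 32.5 CPM (4.40). Globin copies share sequence, so the split of reads between them is uncertain. Sptb, the beta spectrin of the red cell skeleton, went from 4.06, 3.19 and 2.29 CPM to 35.2, 32.1 and 35.3 CPM (3.43). The summed list stood at 1109 to 1258 CPM in the controls, at 2153 to 2187 CPM with both mutants, at a mean of 3978 CPM with CSF3R T618I alone and at 978 CPM with CEBPA V314VW alone.

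**Figure D3:**
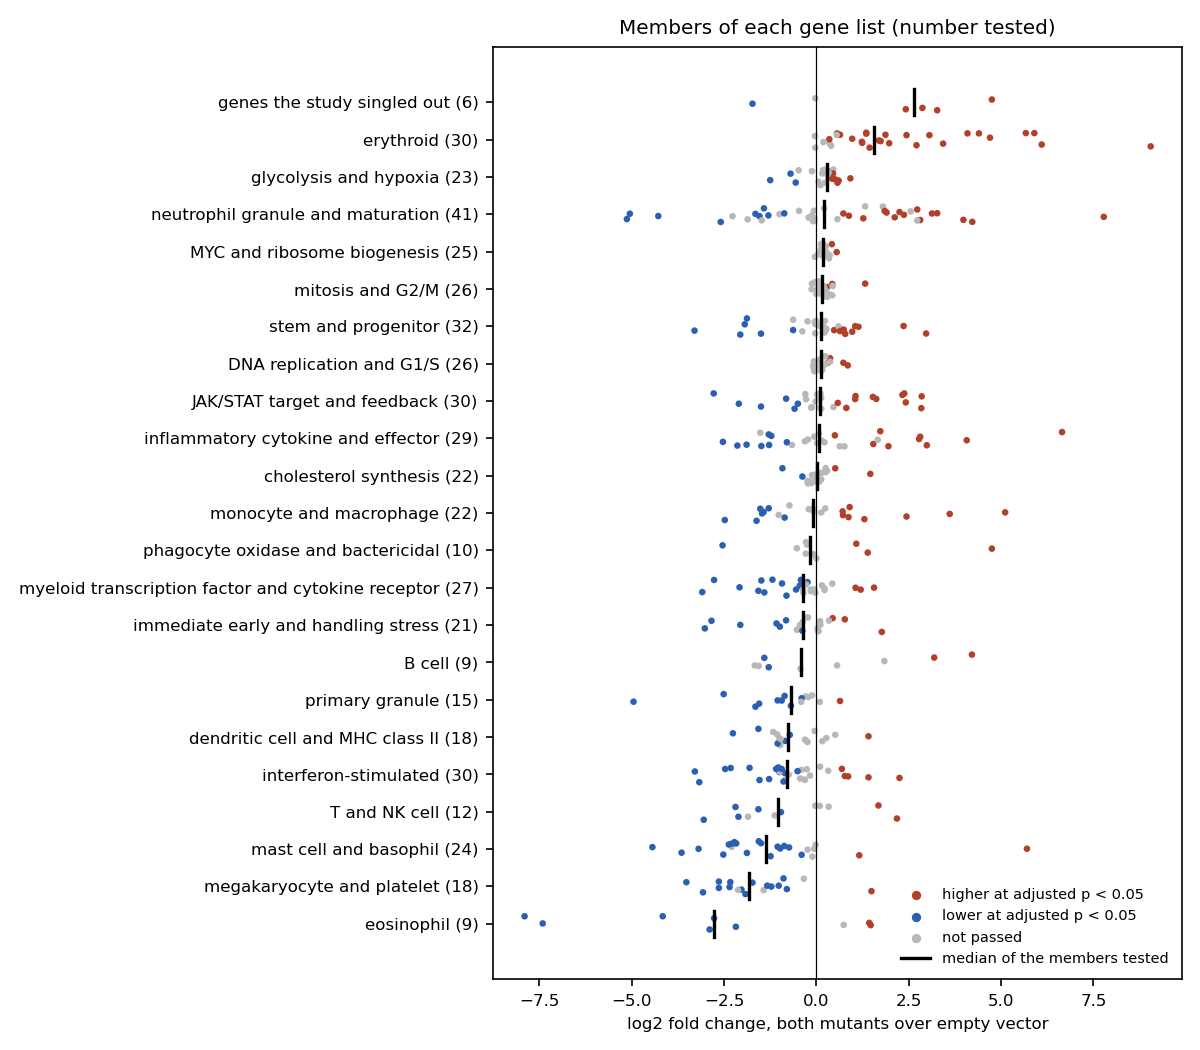
Log2 fold change of both mutants over empty vector for every tested member of each gene list (horizontal axis), with 1 point a gene and a bar at the list's median. Erythroid genes lie mostly to the right (median 1.57), while megakaryocyte (−1.83) and eosinophil (−2.77) genes lie mostly to the left.

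Neutrophil genes split into groups that moved in opposite directions. Of 41 genes 15 rose and 9 fell, and the median was 0.21. Without control library B the median was 0.98, with 15 genes higher and 7 lower. Mmp8 and Chil3, described above, rose, as did Lrg1, a secreted leucine-rich glycoprotein of granules (5.54, 8.83 and 3.02 CPM against 35.2, 43.5 and 43.4 CPM, 2.81), and Il1r2, the decoy receptor for IL-1 (2.51, 5.55 and 1.69 CPM against 17.1, 27.4 and 20.0 CPM, 2.73). The falls included Ngp, Pglyrp1, a bactericidal peptidoglycan-binding protein (−1.65), and Ltb4r1, the receptor for leukotriene B4 (−1.54). Ltf, the lactoferrin of secondary granules, read 10.3, 42.3 and 0.469 CPM with empty vector and 0.199, 1.23 and 0.116 CPM with both mutants. Its log2 fold change was −5.13 with an adjusted p of 0.014. The groups overlapped for Ltf, and without control library B the change was −3.43 and did not pass. It also did not pass without both-mutant library A (−4.76) or C (−4.63).

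Genes of the primary granules, which form at the promyelocyte stage, were lower. Of 15 tested, 9 fell and 1 rose, and the median was −0.69. Mpo, myeloperoxidase, went from 8259, 6277 and 4072 CPM to 1879, 1931 and 2106 CPM (−1.65, SE 0.29, adjusted p = 1.0e-03). Elane, neutrophil elastase, went from 3121, 3269 and 2237 CPM to 899, 966 and 1085 CPM (−1.55, SE 0.14, adjusted p = 3.0e-06). Nkg7, a membrane protein of cytotoxic and myeloid granules, went from 332, 371 and 318 CPM to 54.5, 58.6 and 65.6 CPM (−2.51). Every both-mutant library lay under every control library for these 3 genes, with the controls more widely spread for Mpo. Prss57, a granule serine protease, was the gene that rose (0.64). Among 10 genes of the oxidase and microbial killing, 3 rose and 1 fell, or 2 without control library C. Lyz2, lysozyme, fell by 2.54, and Cybb, the catalytic subunit of the phagocyte oxidase, was higher by 1.08 with an adjusted p of 0.042. Cybb did not pass with library letter as a block (1.06), nor when control library B (1.23) or C (0.77) or any 1 both-mutant library (1.07 to 1.09) was left out.

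**Figure D4:**
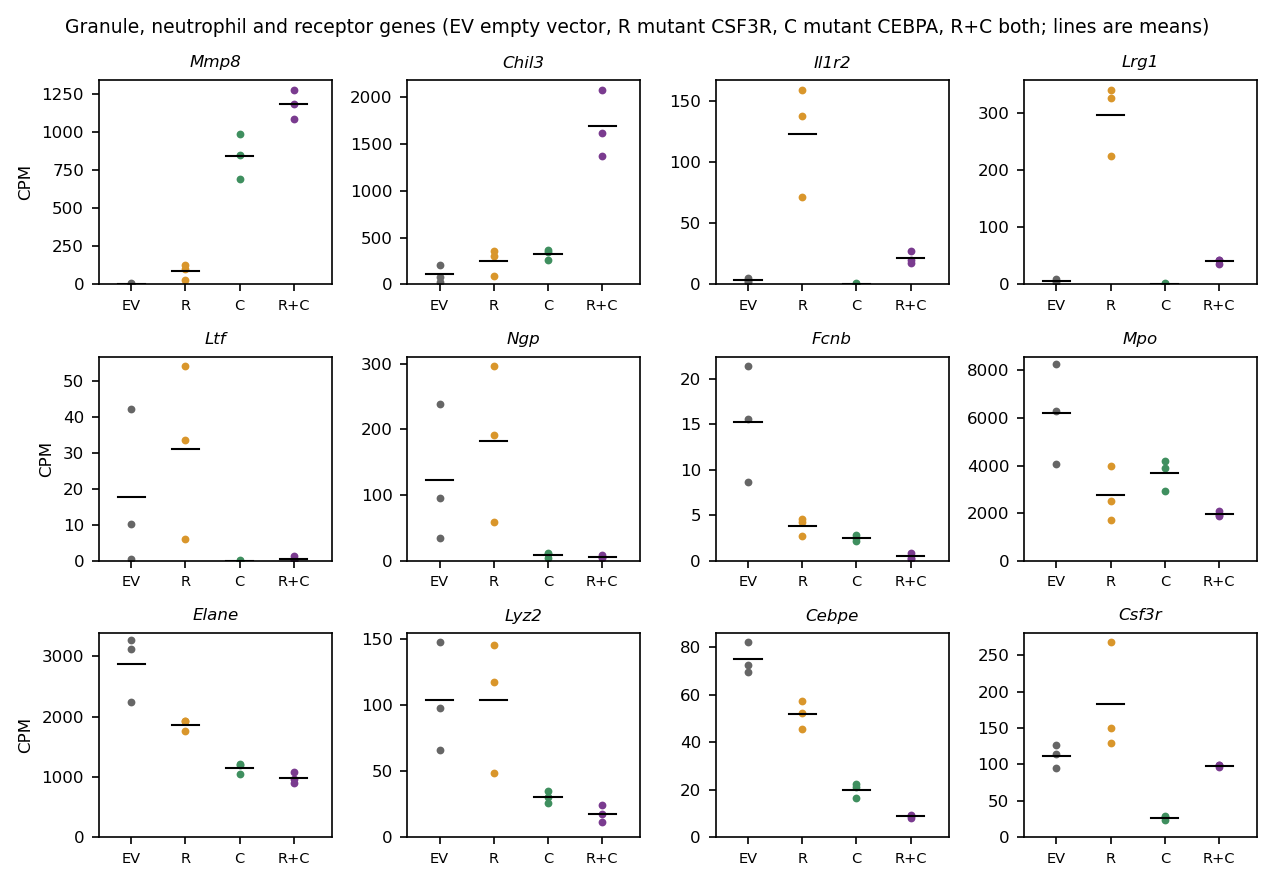
CPM (vertical axes, linear from 0) of granule, neutrophil and receptor genes in the 12 libraries by group (horizontal axes: EV, empty vector; R, CSF3R T618I; C, CEBPA V314VW; R+C, both), with 1 point for a library and a line at the mean. Mmp8 and Chil3 stand above the controls with both mutants, at 1084 to 1277 CPM and 1369 to 2083 CPM, while Mpo and Elane stand below them.

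Monocyte genes were divided as well. Of 22 genes 8 rose and 7 fell, with a median of −0.09. Vcan, the proteoglycan versican, went from 1.16, 1.40 and 0.510 CPM to 36.8, 34.4 and 34.8 CPM (5.11, SE 0.28, adjusted p = 6.6e-08). Fcgr1, the high-affinity IgG receptor (2.44), and Cd14, the lipopolysaccharide co-receptor (1.30), also rose. By contrast, Ly6c2, the antigen of inflammatory monocytes, went from 317, 362 and 240.2 CPM to 89.5, 105 and 105 CPM (−1.62). Csf1r, the receptor for macrophage colony-stimulating factor, fell by 1.52, Irf8, a transcription factor of the monocyte lineage, by 1.43 and Adgre1, which encodes F4/80, by 1.29 log2 units.

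Myeloid transcription factors and receptors fell more often than they rose. Of 27 genes 13 fell and 3 rose, and the median was −0.35. Cebpe, the C/EBP factor needed for secondary granules, went from 72.7, 82.2 and 69.5 CPM to 8.92, 8.06 and 9.45 CPM (−3.09, SE 0.14, adjusted p = 1.7e-08). Id1 (−2.08) and Id2 (−1.57), inhibitors of helix-loop-helix factors, and Fos, an AP-1 subunit (−1.49), also fell. The rises in this list, which does not hold Cebpa (given below), were all cytokine receptors. Csf2rb, the common beta chain for IL-3, IL-5 and GM-CSF, went from 340.0, 278 and 267 CPM to 630.3, 690 and 719 CPM (1.20), and its near-identical copy Csf2rb2, which shares reads with it, rose by 1.56. Il6ra, the IL-6 receptor, rose by 1.06.

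The 2 transduced genes were read through their mouse counterparts. Csf3r stood at 126, 115 and 95.1 CPM with empty vector and at 97.1, 98.8 and 98.8 CPM with both mutants (−0.19, SE 0.22, adjusted p = 0.638). The single mutants differed from this level, with a mean of 183 CPM for CSF3R T618I and 27.3 CPM for CEBPA V314VW. Cebpa rose from 138, 137 and 147 CPM to 212, 216 and 219 CPM (0.62, SE 0.08, adjusted p = 1.3e-04). The inserts were human, and how many of their reads aligned to the mouse genes cannot be told from gene counts, so these values do not check the labels.

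Genes of the JAK/STAT pathway moved in both directions. Of 30 tested, 11 rose and 6 fell, and the median was 0.10. Among receptors, Il6st, the signalling chain gp130 of the IL-6 family, went from 17.2, 14.1 and 13.4 CPM to 106, 108 and 109.7 CPM (2.85), and Il4ra is given above. Of the feedback inhibitors, Socs2 went from 32.1, 34.5 and 40.6 CPM to 180, 191 and 188 CPM (2.38, SE 0.11, adjusted p = 1.4e-08). Cish went the other way, from 37.0, 40.6 and 46.5 CPM to 8.46, 9.96 and 10.5 CPM (−2.10, SE 0.13, adjusted p = 2.1e-07). These inhibitors, each a known target of STAT5, therefore lay on opposite sides of the controls with no overlap. Bcl3, an IκB-family co-regulator, rose by 2.33, and Bcl2l1, which encodes the survival factor BCL-XL, fell by 1.5. Ccnd2, the cyclin D2 gene, fell by 0.82 and Osm, which encodes oncostatin M, by 0.59 log2 units.

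Inflammatory mediators showed no common direction. Of 29 genes 9 rose and 8 fell, with a median of 0.07. Besides Saa3, the rises included Csf1, which encodes macrophage colony-stimulating factor (13.5, 10.0 and 6.45 CPM against 72.9, 82.9 and 82.8 CPM, 2.99), Cxcl3, a neutrophil-attracting chemokine (2.81), and Il1rn, the IL-1 receptor antagonist (1.95). Ccl3, a chemokine for monocytes, went from 78.2, 85.9 and 87.0 CPM to 13.1, 15.5 and 14.9 CPM (−2.53). Nlrp3, an inflammasome sensor (−2.14), Tnfaip3, the NF-κB inhibitor A20 (−1.49), and the chemokine gene Ccl6 (−1.29) fell.

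Interferon-stimulated genes were lower on balance. Of 30 genes 14 fell and 5 rose, and the median was −0.79. Usp18, the protease that removes ISG15, went from between 9.10 and 10.6 CPM to between 1.43 and 2.08 CPM (−2.47), and Cmpk2, a mitochondrial nucleotide kinase, went from 47.0, 38.4 and 36.1 CPM to 8.79, 7.77 and 7.76 CPM (−2.32). Oas1a (−1.54), a sensor of double-stranded RNA, and Dhx58 (−1.28), a regulator of RIG-I, fell as well. Gbp3, a guanylate-binding protein, rose by 1.41 and the antiviral gene Trim30a by 0.77. Ifit2 was higher by 0.69, but did not pass when control library B or C or both-mutant library A or B was left out (0.64 to 0.68). The summed list was 431 to 484 CPM in the controls, 354 to 382 CPM with both mutants and 1310 CPM on average with CEBPA V314VW alone.

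Stem and progenitor genes went in both directions. Of 32 tested, 10 rose and 6 fell, and the median was 0.13. Kit, the receptor for SCF, went from 278, 176 and 148 CPM to 59.0, 50.4 and 53.7 CPM (−1.88), and Cd34 from 190.1, 161 and 192 CPM to 46.2, 43.2 and 40.6 CPM (−2.06). Angpt1, a ligand of the Tie2 receptor, went from between 61.7 and 76.6 CPM to between 6.18 and 7.88 CPM (−3.30), and Gata2, a transcription factor of stem and mast cells, from 550.2, 458 and 492 CPM to 159, 185 and 185 CPM (−1.5). Mecom, a zinc finger transcription factor of stem cells, went from 5.25, 3.96 and 5.14 CPM up to 40.3, 37.3 and 34.9 CPM (2.97, SE 0.32, adjusted p = 2.0e-05). The transcription factor genes Hlf and Mycn rose by 0.78 and 0.97. Ly6a, which encodes the stem cell antigen Sca-1, rose by 1.14. Myb, a regulator of progenitors, read 531, 531 and 515 CPM with empty vector and 511, 519 and 515 CPM with both mutants (−0.03, adjusted p = 0.868).

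Further abundant genes fell. Alas1, the first enzyme of heme synthesis outside the red cell line, went from 832, 808 and 723 CPM to 232, 238 and 243 CPM (−1.73). Tex2 fell by 1.44, Fam107b by 1.37 and Serpina3g, a serpin that inhibits cathepsins, by 1.35 log2 units.

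Dendritic cell and lymphoid genes changed in part. Of 18 dendritic cell genes 5 fell and 1 rose (median −0.78), with the antigen presentation genes H2-DMa (−1.05), H2-Ab1 (−0.84) and H2-DMb1 (−0.72) lower and the transcription factor gene Tcf4 higher (1.41). Among 12 T and NK cell genes 5 fell and 2 rose, or 1 when any library except control C was left out. Thy1, a surface antigen of T cells and some progenitors, went from between 20.3 and 22.5 CPM to between 4.46 and 5.44 CPM (−2.11), the T cell adaptor gene Lat fell by 1.57, and Gzmb, a granzyme, was lower by 0.96 but did not pass without control library A (−0.84). Of 9 B cell genes 2 fell and 2 rose, and Cd79b, a subunit of the B cell receptor, fell by 1.29. The defining markers stayed near zero, with Cd79a at 0.174 to 0.328 CPM in the controls and 0.134 to 0.213 CPM with both mutants, and Cd3d at 0.251 to 0.437 CPM and 0.0442 to 0.0970 CPM.

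Proliferation genes moved little. Of 26 DNA replication genes 4 rose and none fell (median 0.11), led by E2f2, an S-phase transcription factor (0.85), and Ccne1, the cyclin E gene (0.73). Rrm2, a ribonucleotide reductase subunit, rose by 0.37, and Cdc6, a replication licensing factor, by 0.31, the latter with an adjusted p of 0.048. Cdc6 did not pass with library letter as a block (0.31) or when any 1 library was left out (0.29 to 0.33). Of 26 mitosis genes 3 rose and none fell (median 0.14). Ect2, an exchange factor for cytokinesis, went from 188, 161 and 163 CPM to 435, 439 and 407 CPM (1.32), Cdc20 rose by 0.43, and Aurka, a mitotic kinase, was higher by 0.29 but did not pass when any 1 library was left out (0.26 to 0.30). Of 25 genes of the MYC and ribosome biogenesis list 2 rose, Nop56 (0.55) and Gnl3 (0.42), and none fell. In these 3 lists 0 genes fell by edgeR's adjusted p or unadjusted p, by DESeq2 or by limma voom. Of all tested genes 10.7% fell and 10.7% rose by edgeR's adjusted p. The rises in the lists, 4 of 26, 3 of 26 and 2 of 25, lay around that share.

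Metabolic and stress genes changed in part. Of 23 glycolysis and hypoxia genes 9 rose and 3 fell (median 0.29), with the glucose transporter gene Slc2a1 at 67.2, 64.7 and 49.7 CPM in the controls and 108, 114 and 121 CPM with both mutants (0.92). Pfkp, a phosphofructokinase (0.57), and Bnip3, a mitophagy receptor (0.59), rose, while the carbonic anhydrase gene Car9 (−0.70) and the isomerase gene Gpi1 (−0.56) fell. Slc16a3, a lactate exporter, was higher by 0.60 with an adjusted p of 0.047 and did not pass with library letter as a block (0.59) or when any library except control A was left out (0.39 to 0.71). Of 22 cholesterol genes 2 rose, Hmgcs1, the synthase that makes HMG-CoA (1.46), and Fdps, the farnesyl diphosphate synthase (0.51), and 2 fell. The number that fell was 0 to 1 when any library except control C was left out. Of 21 immediate early genes 7 fell and 3 rose (median −0.37). Dusp1, a MAP kinase phosphatase, went from 139, 101 and 86.3 CPM to 26.6, 26.8 and 25.4 CPM (−2.06), and Zfp36, which destabilizes cytokine mRNAs (−0.99), and Dusp2 (−0.82) fell. Fosl2, a Fos family member, rose by 0.44. Klf6, a zinc finger factor, was lower by 0.38 and did not pass with library letter as a block (−0.38) or when any library except control C was left out (−0.39 to −0.31).

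A smaller set went beyond each of the other groups. With both mutants, 96 genes were higher than in empty vector, in CSF3R T618I and in CEBPA V314VW (0.587% of those tested), and 75 were lower than in all 3 (0.458%), by the same rule in each comparison. All of these comparisons share the both-mutant libraries. Smoc2 exceeded CSF3R T618I by 3.38 and CEBPA V314VW by 10.12 log2 units, and Moxd1 did so by 3.10 and 4.11. Meg3 was higher by 2.58 and 3.92, and Mmp12 by 8.83 and 2.48. Trpm6, a magnesium channel, stood at 21.0, 21.9 and 21.6 CPM with both mutants against 0.721 to 1.27 CPM in the controls, and exceeded the single mutants by 2.81 and 4.07. Gpnmb, a membrane glycoprotein of macrophages, stood at 10.1, 12.7 and 11.3 CPM and exceeded them by 4.27 and 2.80. Ptprk, a receptor tyrosine phosphatase, stood at 15.4, 15.3 and 16.6 CPM and exceeded them by 2.06 and 2.08. Chil3 exceeded CSF3R T618I by 2.76 (adjusted p = 6.4e-03) and CEBPA V314VW by 2.39 (adjusted p = 0.014).

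Of the eosinophil genes named above, Epx was below every other group by this rule, while Prg2, Prg3 and Siglecf were not. Epx lay 3.89 below CSF3R T618I and 3.35 below CEBPA V314VW on the log2 scale (−3.89 and −3.35). The changes were −2.64 and −1.55 for Mcpt8, −1.57 and −1.53 for Cd200r3, −2.97 and −2.35 for Fcnb, and −3.53 and −2.16 for Grm6. They were −1.94 and −2.87 for Nov, and −1.61 and −1.38 for Gp5. Each single mutant alone also had lower Epx than empty vector by its mean, with 17.1 CPM for CSF3R T618I and 11.7 CPM for CEBPA V314VW against 0.927 to 1.41 CPM with both.

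**Figure D5:**
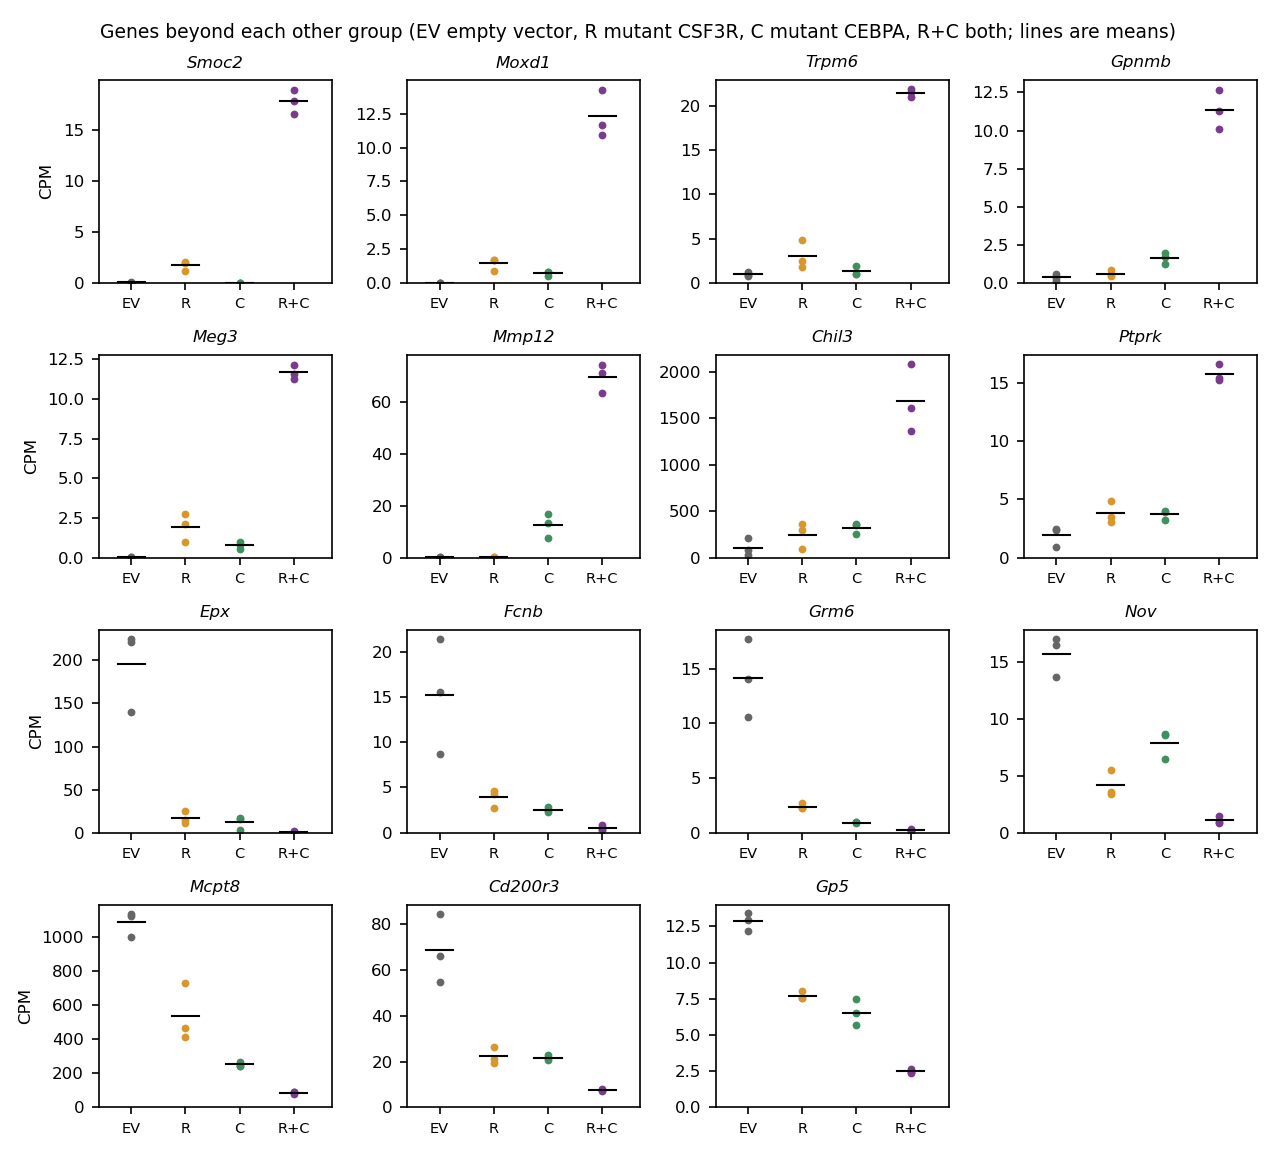
CPM (vertical axes, linear from 0) by group (horizontal axes: EV, empty vector; R, CSF3R T618I; C, CEBPA V314VW; R+C, both) of 8 genes above and 7 genes below every other group, with 1 point for a library and a line at the mean. Trpm6 stands at 21.0 to 21.9 CPM with both mutants and Epx at 0.927 to 1.41 CPM.

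The study had itself singled out 6 genes on these samples, so they are not independent evidence of a direction. With both mutants 4 were higher than with empty vector. Nos2, the inducible nitric oxide synthase, read 0, 0.0656 and 0.0204 CPM in the controls and 0.751, 0.627 and 1.01 CPM with both mutants (4.75), far under its mean of 25.1 CPM with CSF3R T618I alone. Stfa1, a stefin, stood at 4.06 to 5.35 CPM with both mutants (3.27) and at 232 CPM with CSF3R T618I alone, although its reads may be shared with the other stefin copies. Pla2g7, a lipoprotein-associated phospholipase, rose by 2.87, and Bcl6, a transcriptional repressor, went from 1.18, 0.962 and 0.918 CPM to 6.05, 5.44 and 4.89 CPM (2.42). Myb, given above, did not pass against empty vector (−0.03). Its mean was 515 CPM with both mutants, 306 CPM with CSF3R T618I alone and 644 CPM with CEBPA V314VW alone. With both mutants it was 0.75 log2 units above CSF3R T618I alone (adjusted p = 3.8e-05 in edgeR).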

How the data were processed

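RNA was sequenced from 12 libraries, 3 for each of 4 groups. The authors trimmed reads with Trimmomatic, aligned them with STAR to mm10 and deposited a table of raw counts per gene. Which program counted the reads, and with what strand setting, is not given in the sources used here, so reads of overlapping or antisense genes cannot be separated. The table held 51912 genes after 6 identical repeated lines were dropped, and 0 value columns were without a sample. Coordinates are those of mm10 gene models.

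Genes were kept by edgeR's filterByExpr (16360 genes). Counts were scaled by trimmed mean of M values and fitted over all 12 libraries with edgeR 4.0.16 (R 4.3.3) by the quasi-likelihood test, with Benjamini-Hochberg adjustment over all tested genes. Standard errors are the absolute log2 fold change divided by the square root of F. The steps were tested on simulated data. limma 3.58.1, DESeq2 1.42.0, other scalings and filters, a length correction, a block and the omission of each library were alternatives. Promoters were searched with Python 3.11.15.

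Named genes were the 15 largest changes each way among called genes of at least 10 CPM without overlap and not predicted genes, the 10 called genes each way with the highest CPM, the 4 largest passing members each way of at least 10 CPM in each of 23 lists, the 8 genes each way furthest beyond every other group, Csf3r, Cebpa and the 6 genes the study singled out. The groups, lists and this rule were chosen with earlier results of these data known, so no list is independent support. A few genes that this rule takes are not reported here.

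The labels give each group the letters A, B and C without saying what a letter shares. Between empty vector and both mutants, deviations of equal letters from their group means correlated at 0.234, 0.102 and 0.163 over 8966 genes. The letters were therefore treated as pairs in the blocked fit over all 12 libraries. Pairing with the single mutants was not tested. Their correlations with log2 exon length for A, B and C were −0.481, −0.263 and 0.499 (CSF3R T618I), and −0.449, 0.459 and 0.274 (CEBPA V314VW). Those of A and C had the opposite sign in the 2 compared groups. Whether exon length underlies the correlations of equal letters was not tested.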

Additional observations from a re-analysis of the deposited data

How the results depend on the processing

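Among named genes that passed adjusted p 0.05 in the main fit or the alternative, none reversed its direction under any of 16 alternatives. A change of sign in a gene that passed in neither was not counted. Of 155 named genes, 146 stayed on the same side of adjusted p 0.05 in all alternatives. The exceptions included Aurka, Cdc6, Cybb, Gzmb, Ifit2, Klf6, Ltf and Slc16a3. With library letter as a replicate block 1816 genes were called against 1897, and named genes that no longer passed adjusted p 0.05 included Cybb (1.06), Cdc6 (0.31), Slc16a3 (0.59) and Klf6 (−0.38). The same block on the 6 compared libraries only, chosen after the data were seen, gave 1929 calls. Without a block, these 6 libraries alone gave 960 genes called higher and 982 lower. By adjusted p alone they gave 2193 higher and 2533 lower, against 1754 and 1755 with all 12 libraries. Under a filter of 10 CPM, which leaves fewer genes to test, 364 genes were called higher and 325 lower, 1054 and 1142 passed adjusted p alone, and 40 and 29 lay above and below every other group. limma voom, which was run with a weight for each group, gave 2702 genes lower by adjusted p alone, against 1755, and the cause was not tested. DESeq2 gave 2026 calls and no filter 1935. When each library was left out in turn, 865 to 932 genes were called higher and 786 to 871 lower, 1351 to 1481 and 1320 to 1597 passed adjusted p alone, and 76 to 95 and 57 to 70 lay above and below every other group. Depth limits the genes with 0 to 3 counts in a group, whose fold changes are bounds or wide intervals, and counting intervals cover counting error only.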

Other observations

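Gene families that were picked after their values were seen showed further changes with both mutants, and they are given as descriptions. Of 34 genes with a symbol of the interleukin receptor form (Il, digits, r), 12 were called higher and 3 lower, with a median log2 fold change of 0.60. The higher calls include Il1rn, which encodes the IL-1 receptor antagonist and not a receptor. Over all tested genes 6.15% were called higher and 5.45% lower. Il17rb, a receptor chain for IL-25, went from between 0.444 and 0.714 CPM in the controls to between 24.95 and 27.5 CPM with both mutants, and its mean was 102 CPM with CEBPA V314VW alone. Il20ra (6.01) and Il13ra1 (4.19) were also higher, while the IL-9 receptor gene Il9r (−2.53) was lower.

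Of 23 semaphorin, plexin and neuropilin genes, 9 were called higher and 3 lower (median 0.47), beside 6.15% and 5.45% of all tested genes. The neuropilins, co-receptors of secreted semaphorins, went in opposite directions, with Nrp2 higher by 3.90 and Nrp1 lower (−2.89). Of 13 matrix metalloproteinase genes 6 were called higher (median 1.5), beside the same 6.15% of all tested genes. Among them were the gelatinase gene Mmp2 (1.66) and Mmp14 (1.49), its membrane-bound activator.

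Of 16 chemokine and complement receptor genes 4 were called higher and 3 lower (median 0.30), again beside 6.15% and 5.45% of all tested genes. Ccr1, a receptor for CCL3 and related chemokines, rose by 1.72. The anaphylatoxin receptor genes C5ar1 (−3.21) and C3ar1 (−4.09) were both lower. Rian, a noncoding RNA of the same imprinted cluster as Meg3, was also higher (6.72), at 4.77 to 6.81 CPM with both mutants.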
